A study of Mus musculus with 12 samples.

Results

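The genes described here encode the proteins of tight junctions and desmosomes, together with the polarity proteins Crb3 and Pard6b. They number 36, of 22180 genes with a probe set of their own, and were chosen as a list: 15 claudins, 9 other tight junction and polarity genes, and 12 desmosome genes. A probe set counted for a gene only where that gene was the only symbol it named, and where several did, the one of highest mean log2 intensity was used. All 36 had such a probe set, and only Dsg2 had more than 1. The cells were mouse embryonic fibroblasts from E13.5 embryos of mixed C57Bl/6 and 129X1/SvJ strain. Every group carried a tetracycline-operator cassette for Oct4, Klf4, Sox2 and c-Myc (OKSM) at Col1a1 and the transactivator M2rtTA at R26, was infected with a retroviral hairpin and was given doxycycline in serum and LIF. The 4 groups, each of 3 arrays, were a Renilla hairpin at day 3 of doxycycline (day 3 control), a Chaf1a hairpin at day 3 (day 3 knockdown), a Renilla hairpin at day 6 (day 6 control) and a Chaf1a hairpin at day 6 (day 6 knockdown). Chaf1a encodes the large subunit of the histone chaperone CAF-1. The infected cultures were measured as a whole, with no group without OKSM, and the origin of the replicates, be it separate embryos, cultures or wells, is not in the labels, so that p-values measure only the spread between these samples.

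Tight junctions seal neighbouring epithelial cells near their apical surface. Claudins form the strands that cross the gap, occludin and the MARVEL proteins join them, and scaffold proteins of the ZO family tie the strands to actin. Desmosomes lie below and hold cells together through the cadherins desmoglein and desmocollin, whose tails bind plakoglobin and plakophilins and, through desmoplakin, the keratin filaments. Fibroblasts largely lack both structures, and the gain of epithelial genes is a known early step when fibroblasts are reprogrammed by OKSM.

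Of the 36 genes, 30 reached the array's own 30th percentile, a log2 intensity of 4.30 to 4.38, on all 12 arrays, and 4 (Cldn5, Cldn7, Cldn10 and Cldn18) did so on 3 to 11. Cldn2, a channel-forming claudin of leaky epithelia, and Cldn8 reached it on no array, and they were not tested. Their log2 intensities lay between 3.63 and 3.94 for Cldn2 and between 3.39 and 3.85 for Cldn8. The other 34 were tested with limma among 17859 genes, with Benjamini-Hochberg adjustment over all of them and a threshold of 0.05.

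Some facts of the series bear on every comparison. Chaf1a itself differed little between the hairpins. It measured 7.53 ± 0.17 in day 3 control and 7.24 ± 0.09 in day 3 knockdown (log2 intensity, mean ± SD, n = 3). That was a difference of -0.29, with an adjusted p of 0.726 and an unadjusted p under 0.05 by limma. At day 6 it measured 7.22 ± 0.14 in control and 7.10 ± 0.06 in knockdown, a difference of -0.12 with an adjusted p of 0.999 by limma, so the targeted transcript did not separate the groups past the threshold, and knockdown below means the library labelled with the Chaf1a hairpin. The day 3 control and knockdown arrays did not overlap for Chaf1a, and the day 6 arrays did. From day 3 to day 6 Chaf1a differed by -0.30 in control cells, past the threshold, and by -0.14 in knockdown cells, where it did not pass. In each group of cells its day 6 arrays lay below its day 3 arrays. On day 3 knockdown replicate 2 the mean deviation of 9 interferon-stimulated genes was 1.27 on the log2 scale, against -0.25 to 0.01 on the other 11 arrays. Of 10 fibroblast markers, 9 reached the low-value filter and Lum did not. Their mean log2 intensities over the groups differed widely, with Vim at 13.29 to 13.34, Col1a2 at 11.31 to 11.48 and Pdgfra at 5.18 to 5.49. From day 3 to day 6 Pdgfrb rose by 1.11 in control and by 0.91 in knockdown cells, the only 1 of the 9 past the threshold.

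The first question was how the junction genes moved between day 3 and day 6 of factor induction. In control cells 6 members rose (Cldn1, Cldn3, Cldn11, F11r, Pard6b and Tjp1), 3 fell (Dsc2, Dsp and Pkp2), and 25 of 34 did not pass the test. The members called higher were 17.6% of those tested against 6.98% of all genes tested, and those called lower were 8.82% against 10.6%. In knockdown cells the same 6 rose together with Cldn6, Crb3, Marveld3 and Tjp3, and Dsc2 fell. These were 29.4% and 2.94% of the members, against 7.45% and 10.5% of all genes. For Cldn6, Crb3, Marveld3 and Tjp3 the change in knockdown cells differed from that in control cells by 0.29, 0.25, 0.04 and 0.19. None of these differences passed the test (adjusted p of 0.918 to 0.993 by limma). In this fit every rise was in a tight junction or polarity gene and every fall in a desmosome gene. With the replicate number as a block, the desmosome gene Jup also rose in knockdown cells and Cldn6 did not pass. After renewed quantile normalisation, Cldn6, Crb3, Marveld3 and Tjp3 did not pass (adjusted p of 0.101, 0.0561, 0.0541 and 0.0630). Among 13 claudins tested, 3 rose in control and 4 in knockdown cells, and among 9 other tight junction and polarity genes 3 and 6 rose. Among the 12 desmosome genes none rose, 3 fell in control and 1 fell in knockdown cells.

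The members' median log2 fold change from day 3 to day 6 was 0.063 in control cells, against 0.0096 over all genes, and 0.16 in knockdown cells, against 0.0085. The control median was 0.021 without day 3 control replicate 2, 0.10 without day 3 control replicate 1, and 0.022 to 0.039 without day 3 control replicate 3, day 6 control replicate 3 or replicate 3 of all groups. It was 0.016 after renewed quantile normalisation, 0.038 with an offset of 16 and 0.10 with a filter at the array median. Of the 34 members 20 were above 0 in control cells (58.8%, against 52.2% of all genes), and 26 were above 0 in knockdown cells (76.5%, against 51.9%). The 3 day 6 arrays all lay above the 3 day 3 arrays for 10 members in control cells (29.4%, against 16% of all genes) and for 15 in knockdown cells (44.1%, against 15.4%). They all lay below for 6 members in control cells (17.6%, against 19.3%) and for 2 in knockdown cells (5.88%, against 18.9%). Without the day 3 knockdown array that stood apart in interferon-stimulated genes, 7 members rose and 2 fell in knockdown cells. In control cells 3 rose without replicate 1 or replicate 3 of all groups, 1 fell without day 3 control replicate 2 or 3 or day 6 control replicate 1, and 0 fell without replicate 2 or 3 of all groups. In knockdown cells 3 rose without replicate 2 of all groups and 6 without replicate 1 or 3 of all groups or day 3 knockdown replicate 3, and 0 fell without day 3 knockdown replicate 1 or 3, day 6 knockdown replicate 2, or replicate 2 or 3 of all groups. With the replicate number as a block, 2 fell in knockdown cells (Dsc2 and Pkp2). These are cultures measured in bulk, so more cells of a kind and more RNA per cell cannot be told apart.

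**Figure D1:**
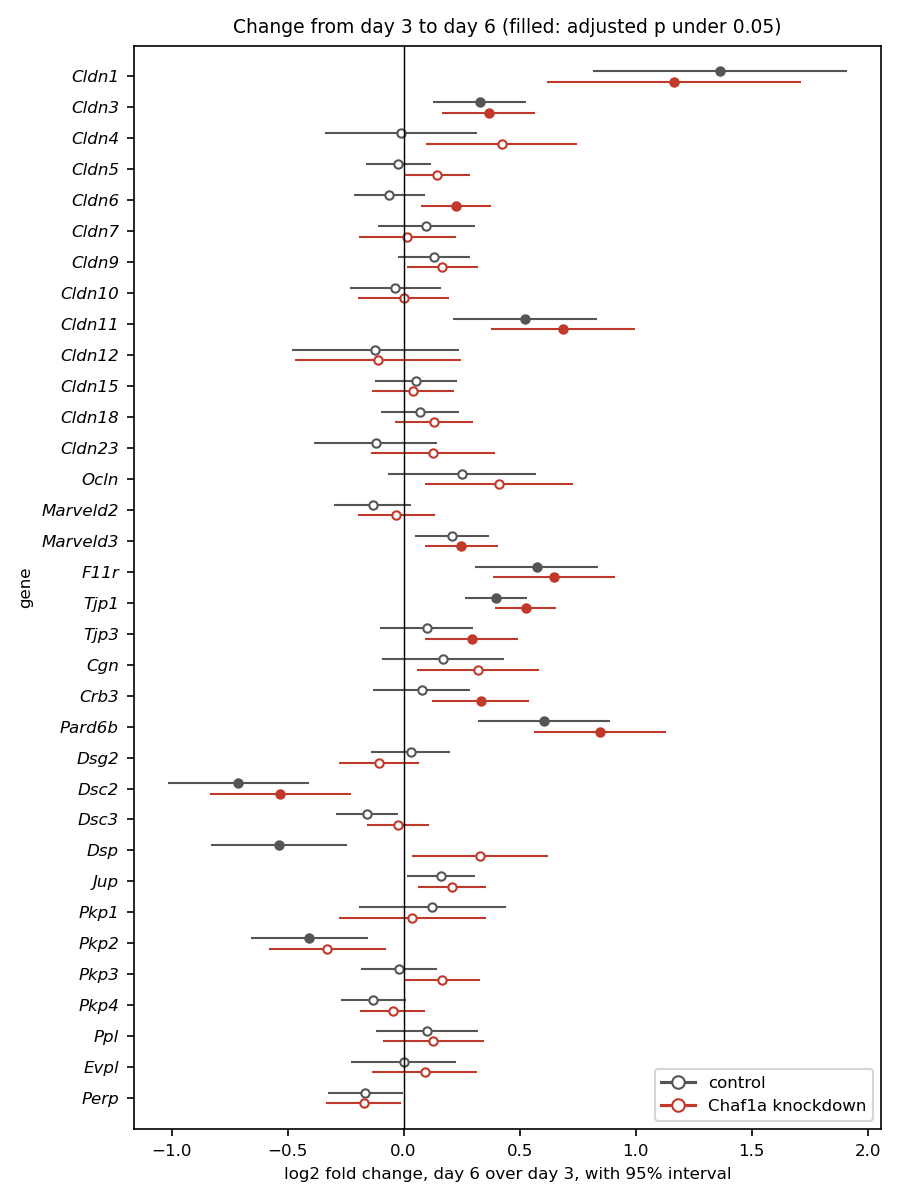
Log2 fold change from day 3 to day 6 of doxycycline for the 34 tested genes, with 95% intervals from limma, in control cells and in knockdown cells; filled markers passed an adjusted p of 0.05. Cldn1, at 1.36 and 1.17, lay furthest to the right, and Dsc2, at -0.71 and -0.53, furthest to the left.

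Of the claudins, Cldn1, a barrier-forming claudin of skin and many other epithelia, moved most. The log2 intensity of Cldn1 was 6.07, 5.85 and 5.56 in day 3 control, 5.86, 5.74 and 6.03 in day 3 knockdown, 7.94, 6.73 and 6.91 in day 6 control and 7.31, 6.98 and 6.83 in day 6 knockdown (replicates 1 to 3). Every day 6 array lay above every day 3 array, and day 6 control replicate 1 stood well above the other day 6 arrays. Cldn1 rose by 1.36 (SE 0.25, a 2.58-fold difference, adjusted p = 0.00303) in control cells and by 1.17 (SE 0.25, 2.24-fold, adjusted p = 0.00701) in knockdown cells. Without day 6 control replicate 1 the rise in control cells was 0.99, its lowest value over the arrays left out, and without replicate 2 of all groups the rise in knockdown cells was 1.13 with an adjusted p of 0.0705. The fibroblast markers also stood high on day 6 replicate 1, with mean deviations of 0.45 in control and 0.40 in knockdown against -0.16 to 0.04 on the other 10 arrays. Their part in the high Cldn1 value was not tested.

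Cldn11, a claudin of myelin and of Sertoli cell junctions, was ordered by both day and hairpin. In the order of the replicates, Cldn11 measured 7.37, 7.08 and 6.98 in day 3 control, 7.77, 7.48 and 7.69 in day 3 knockdown, 7.79, 7.75 and 7.47 in day 6 control and 8.21, 8.64 and 8.14 in day 6 knockdown (log2 intensity). All 3 knockdown arrays lay above all 3 control arrays on each day, and in each hairpin group the day 6 arrays lay above those of day 3. It rose by 0.52 (SE 0.14, 1.44-fold, adjusted p = 0.0242) in control and by 0.68 (SE 0.14, 1.61-fold, adjusted p = 0.00575) in knockdown cells. In control cells the call did not hold without day 3 control replicate 2 or 3, day 6 control replicate 1 or 2, or replicate 1, 2 or 3 of all groups (log2 fold changes of 0.44 to 0.58, adjusted p of 0.0602 to 0.112). In knockdown cells it did not hold without replicate 2 of all groups (0.44, adjusted p = 0.103).

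Cldn3, a widespread barrier-forming claudin, showed a smaller rise. On the log2 intensity scale the Cldn3 arrays read 6.70, 6.67 and 6.81 in day 3 control, 6.82, 6.87 and 6.59 in day 3 knockdown, 7.13, 7.03 and 7.0 in day 6 control and 7.14, 7.28 and 6.95 in day 6 knockdown. The day 6 arrays lay above the day 3 arrays of the same hairpin without overlap. The rise was 0.33 (SE 0.09, adjusted p = 0.0293) in control and 0.37 (SE 0.09, adjusted p = 0.0167) in knockdown cells. The control call was lost without day 3 control replicate 1 or 2, any of the 3 day 6 control arrays, or replicate 1 or 2 of all groups (0.28 to 0.35, adjusted p of 0.0522 to 0.204). The knockdown call was lost without day 3 knockdown replicate 3, day 6 knockdown replicate 2, or replicate 1 or 2 of all groups (0.28 to 0.39, adjusted p of 0.0717 to 0.0968), and in a fit of only the groups compared (adjusted p = 0.0597).

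Cldn6, a claudin of embryonic epithelia and pluripotent cells, stayed close to the low-value filter. Day 3 arrays gave Cldn6 log2 intensities of 4.76, 4.83 and 4.62 in control and 4.72, 4.70 and 4.76 in knockdown, and day 6 arrays 4.64, 4.60 and 4.79 in control and 4.98, 4.97 and 4.90 in knockdown. The 3 day 6 knockdown arrays lay above all 9 other arrays, which overlapped each other. It rose by 0.23 (SE 0.07, 1.17-fold, adjusted p = 0.0418) in knockdown cells, while the control difference was -0.06 (adjusted p = 0.617). This call held in none of the 9 fits that left out arrays (0.20 to 0.27, adjusted p of 0.0564 to 0.220). It was also lost with the replicate number as a block (adjusted p = 0.0581) and with no filter, renewed quantile normalisation, the offset, array weights or another variance prior (adjusted p of 0.0525 to 0.101). The neighbouring gene on chromosome 17, Cldn9, had differences of 0.13 in control and 0.17 in knockdown cells, with adjusted p of 0.241 and 0.129. On chromosome 5, Cldn4 lies next to Cldn3, with no coding gene between them.

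The other claudins did not pass the test from day 3 to day 6. Cldn4, a claudin of tight epithelia, differed by -0.01 in control cells (adjusted p = 0.973) and by 0.42 in knockdown cells (95% interval 0.10 to 0.75, adjusted p = 0.0718). The log2 intensity of Cldn4 was 5.65, 5.43 and 5.70 in day 3 control, 5.75, 5.57 and 5.16 in day 3 knockdown, 5.57, 5.56 and 5.62 in day 6 control and 6.10, 5.60 and 6.04 in day 6 knockdown (replicates 1 to 3). Day 6 knockdown replicates 1 and 3 were the highest of the 12 arrays and replicate 2 lay within the range of the others. Cldn12 measured between 7.60 and 8.41 on all arrays, with differences of -0.12 and -0.11 and wide overlap. The endothelial claudin Cldn5 differed by -0.02 and 0.14, and Cldn7, Cldn10, Cldn15, Cldn18 and Cldn23 by -0.12 to 0.13 in either group of cells. Of 7 endothelial markers tested, Kdr and Cdh5 rose in the same comparison, by 1.00 and 0.40 in control and by 1.25 and 0.51 in knockdown cells. The 5 others did not pass, with Tek at -0.16 and -0.19 and Flt1 at -0.17 and -0.17, and Emcn did not reach the filter. Of the 7 tested, 4 differences were above 0 and 3 below in each group of cells. Their medians were 0.14 in control and 0.023 in knockdown cells. The 8 endothelial markers had a summed intensity of 1340 to 1445 in day 3 control, 1408 to 1470 in day 3 knockdown, 1250 to 1425 in day 6 control and 1365 to 1409 in day 6 knockdown. Tek made up most of that sum, with group intensities of 1059, 1107, 950 and 973 in that order. The markers' mean deviation from their own 12-array means was higher on day 6. In control cells it moved from between -0.154 and -0.028 to between 0.029 and 0.127. In knockdown cells it moved from between -0.121 and -0.020 to between 0.007 and 0.135. The days did not overlap on this mean, which has no test. What part the endothelial markers had in the rises of tight junction genes was not tested.

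Among the other membrane proteins of the tight junction, F11r (JAM-A), an immunoglobulin-type adhesion molecule, rose in both groups of cells. In the order of the replicates, F11r measured 7.52, 7.67 and 7.50 in day 3 control, 7.97, 7.83 and 7.81 in day 3 knockdown, 8.24, 8.05 and 8.12 in day 6 control and 8.86, 8.30 and 8.39 in day 6 knockdown (log2 intensity). The knockdown arrays lay above the control arrays on each day, and the day 6 arrays above the day 3 arrays of the same hairpin. The rise was 0.57 (SE 0.12, 1.49-fold, adjusted p = 0.00664) in control and 0.65 (SE 0.12, 1.57-fold, adjusted p = 0.00307) in knockdown cells. Without replicate 3 of all groups the adjusted p was 0.0973 in control (0.55) and 0.0538 in knockdown cells (0.68).

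Marveld3, a MARVEL-domain partner of occludin, passed the threshold in knockdown cells but not in control cells. On the log2 intensity scale the Marveld3 arrays read 5.23, 5.09 and 5.13 in day 3 control, 5.11, 5.25 and 5.17 in day 3 knockdown, 5.26, 5.43 and 5.38 in day 6 control and 5.51, 5.46 and 5.31 in day 6 knockdown. Day 6 and day 3 arrays did not overlap in either group of cells. The difference was 0.21 in control (adjusted p = 0.0704) and 0.25 in knockdown cells (SE 0.07, adjusted p = 0.0333), and these differences themselves differed by 0.04 (SE 0.10, adjusted p = 0.993). Of 9 fits that left out arrays, the knockdown call held in 2, without day 3 knockdown replicate 2 and without day 6 knockdown replicate 3 (lost otherwise at adjusted p of 0.0845 to 0.212). It was also lost after renewed quantile normalisation, with another variance prior and in a fit of only the groups compared (adjusted p of 0.0524 to 0.0720). Occludin (Ocln), the first MARVEL protein of the strands, differed by 0.25 in control and 0.41 in knockdown cells (adjusted p = 0.283 and 0.0729). Day 3 arrays gave Ocln log2 intensities of 4.98, 4.88 and 5.01 in control and 5.06, 5.15 and 4.93 in knockdown, and day 6 arrays 5.21, 5.10 and 5.31 in control and 5.90, 5.18 and 5.31 in knockdown. Day 6 knockdown replicate 1 was the highest array, and within each hairpin the day 6 arrays lay above those of day 3. Marveld2 (tricellulin), the neighbour of Ocln on chromosome 13 with no coding gene between them, differed by -0.13 in control and -0.03 in knockdown cells and did not pass.

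Of the cytoplasmic plaque, Tjp1 (ZO-1), the scaffold that links claudins and occludin to actin, had the smallest adjusted p of all members in both groups of cells. The log2 intensity of Tjp1 was 10.68, 10.76 and 10.61 in day 3 control, 10.67, 10.60 and 10.65 in day 3 knockdown, 11.12, 11.06 and 11.07 in day 6 control and 11.25, 11.11 and 11.15 in day 6 knockdown (replicates 1 to 3). The 6 day 6 arrays lay above the 6 day 3 arrays. Tjp1 rose by 0.40 (SE 0.06, 1.32-fold, adjusted p = 9.67e-04) in control and by 0.53 (SE 0.06, 1.44-fold, adjusted p = 1.25e-04) in knockdown cells, and it passed in each of the 9 fits per comparison that left out arrays.

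Tjp3 (ZO-3), a scaffold of epithelial cells, rose by 0.29 (SE 0.09, adjusted p = 0.0435) in knockdown cells and differed by 0.10 in control cells (adjusted p = 0.526). In the order of the replicates, Tjp3 measured 6.18, 5.92 and 6.12 in day 3 control, 5.97, 6.04 and 6.01 in day 3 knockdown, 6.04, 6.25 and 6.22 in day 6 control and 6.14, 6.45 and 6.31 in day 6 knockdown (log2 intensity). In knockdown cells the day 6 arrays lay above the day 3 arrays, and in control cells they overlapped. Of 9 fits that left out arrays, the knockdown call held in 2, without day 6 knockdown replicate 1 and without replicate 1 of all groups (lost otherwise at adjusted p of 0.0757 to 0.255). It was also lost with no filter, after renewed quantile normalisation and in a fit of only the groups compared (adjusted p of 0.0523 to 0.0630). Cingulin (Cgn), a plaque protein that binds ZO-1, differed by 0.17 in control and 0.32 in knockdown cells (adjusted p = 0.392 and 0.0886).

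Of the polarity genes, Pard6b, a PAR6 scaffold of the atypical protein kinase C complex, rose by 0.60 (SE 0.13, 1.52-fold, adjusted p = 0.00750) in control and by 0.84 (SE 0.13, 1.80-fold, adjusted p = 9.49e-04) in knockdown cells. On the log2 intensity scale the Pard6b arrays read 5.77, 6.11 and 5.57 in day 3 control, 6.07, 5.76 and 5.88 in day 3 knockdown, 6.38, 6.36 and 6.52 in day 6 control and 6.90, 6.55 and 6.79 in day 6 knockdown. All day 6 arrays lay above all day 3 arrays, and the day 6 knockdown arrays above the day 6 control arrays. The control call did not hold without replicate 1 (0.60, adjusted p = 0.0521) or replicate 3 (0.43, adjusted p = 0.157) of all groups, and the knockdown call held in all 9 fits that left out arrays. Crb3, the apical membrane determinant of the Crumbs complex, differed by 0.08 in control cells (adjusted p = 0.643) and rose by 0.33 (SE 0.10, adjusted p = 0.0318) in knockdown cells. Day 3 arrays gave Crb3 log2 intensities of 6.17, 6.07 and 5.97 in control and 5.75, 5.88 and 6.14 in knockdown, and day 6 arrays 6.04, 6.18 and 6.21 in control and 6.16, 6.33 and 6.27 in knockdown. The day 6 knockdown arrays lay above the day 3 knockdown arrays, which reached lower than any control array. Of 9 fits that left out arrays, this call held in 3, without day 3 knockdown replicate 3, day 6 knockdown replicate 1 or replicate 3 of all groups (lost otherwise at adjusted p of 0.0767 to 0.266). It was also lost after renewed quantile normalisation (0.0561) and in a fit of only the groups compared (0.0743).

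For members that passed from day 3 to day 6 in control cells, the sequence before the start is shown where one was held. These were 6 that rose in both groups of cells and Dsp, and none was held for Dsc2 and Pkp2, which also fell. The 7 sequences are shown so that motifs of factors known at epithelial genes can be read beside the values. Each is the 250 bases upstream of a gene start, 5′ to 3′ on the gene's strand, from RefSeq on GRCm38.p6, with capitals marking matches to CAGGTG (the E-box of Snail and Zeb repressors), AACCGG (part of the grainyhead site), GGGCGG (a GC box) or CACGTG (the E-box of Myc) on either strand.
Cldn1 (chr16:26371840-26372089, minus strand): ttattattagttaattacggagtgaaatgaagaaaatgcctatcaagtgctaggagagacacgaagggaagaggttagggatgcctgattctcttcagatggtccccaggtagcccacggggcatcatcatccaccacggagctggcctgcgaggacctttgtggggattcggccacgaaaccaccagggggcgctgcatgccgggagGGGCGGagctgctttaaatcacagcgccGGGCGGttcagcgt
Cldn3 (chr5:134985964-134986213, plus strand): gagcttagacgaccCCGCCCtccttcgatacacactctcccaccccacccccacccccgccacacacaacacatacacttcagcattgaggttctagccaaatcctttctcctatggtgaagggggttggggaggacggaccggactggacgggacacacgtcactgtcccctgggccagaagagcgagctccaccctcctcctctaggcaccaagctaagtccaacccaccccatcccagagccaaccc
Cldn11 (chr3:31149670-31149919, plus strand): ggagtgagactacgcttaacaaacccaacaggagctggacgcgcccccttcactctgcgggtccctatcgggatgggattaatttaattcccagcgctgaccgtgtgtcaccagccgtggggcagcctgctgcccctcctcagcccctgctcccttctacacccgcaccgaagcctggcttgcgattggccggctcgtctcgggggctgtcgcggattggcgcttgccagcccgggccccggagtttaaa
Tjp1 (chr7:65371245-65371494, minus strand): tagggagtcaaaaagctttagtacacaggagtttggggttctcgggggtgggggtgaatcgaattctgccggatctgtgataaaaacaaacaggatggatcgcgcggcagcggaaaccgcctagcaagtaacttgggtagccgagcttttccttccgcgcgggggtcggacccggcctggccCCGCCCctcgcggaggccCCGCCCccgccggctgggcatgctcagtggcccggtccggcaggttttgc
F11r (chr1:171437311-171437560, plus strand): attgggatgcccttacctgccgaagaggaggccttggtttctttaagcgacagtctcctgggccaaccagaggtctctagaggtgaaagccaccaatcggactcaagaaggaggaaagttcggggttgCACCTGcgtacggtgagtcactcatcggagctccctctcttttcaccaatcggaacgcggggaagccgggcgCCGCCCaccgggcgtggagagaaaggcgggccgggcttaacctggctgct
Dsp (chr13:38151044-38151293, plus strand): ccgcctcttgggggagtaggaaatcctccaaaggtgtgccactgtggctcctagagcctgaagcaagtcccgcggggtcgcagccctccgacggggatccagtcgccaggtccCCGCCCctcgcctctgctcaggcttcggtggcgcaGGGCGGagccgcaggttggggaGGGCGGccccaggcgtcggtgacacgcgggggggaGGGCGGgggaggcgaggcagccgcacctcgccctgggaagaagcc
Pard6b (chr2:168080754-168081003, plus strand): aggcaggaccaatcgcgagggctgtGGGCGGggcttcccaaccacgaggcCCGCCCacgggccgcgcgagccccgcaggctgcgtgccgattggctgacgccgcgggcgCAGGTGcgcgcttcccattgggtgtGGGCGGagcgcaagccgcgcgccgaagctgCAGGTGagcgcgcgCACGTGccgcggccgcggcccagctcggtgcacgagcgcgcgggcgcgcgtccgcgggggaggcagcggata

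RefSeq promoter windows, from 250 bases before to 50 after a start, were held for 23 of the 36 members, 33 windows in all, and windows of the same gene can overlap. Of the desmosome genes only Dsp, Jup and Pkp4 had a window, so the members' shares below come mostly from tight junction and polarity genes. CAGGTG or its reverse complement was present in 16 of the 33 windows (48.5%), belonging to 12 genes, against 20.2% of all 32851 windows and 19.7% of 21262 windows of coding genes. The 12 were Cldn3, Cldn4, Cldn6, Cldn7, Crb3, Dsp, F11r, Marveld2, Ocln, Pard6b, Pkp4 and Tjp3. GGGCGG was present in 72.7% of the members' windows against 46.2% of coding windows, AACCGG in 12.1% against 8.01%, and CACGTG in 12.1% against 7.84%. Median GC content was 60.7% in the members' windows and 56.3% in coding windows. In the printed stretches Pard6b holds 2 matches to CAGGTG and F11r holds 1, while the CAGGTG matches of Cldn3 and Dsp lie in the 50 bases after the start. Windows of Cldn1, Cldn11 and Tjp1 hold no CAGGTG. The match of letters is a description of these windows, and no window was tested for binding.

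Among the desmosome genes, desmocollin 2 (Dsc2), the desmosomal cadherin of simple epithelia, fell in both groups of cells. The log2 intensity of Dsc2 was 5.96, 6.45 and 6.42 in day 3 control, 6.50, 6.25 and 6.60 in day 3 knockdown, 5.60, 5.43 and 5.65 in day 6 control and 6.10, 5.70 and 5.96 in day 6 knockdown (replicates 1 to 3). The day 6 arrays lay below the day 3 arrays of the same hairpin without overlap. Dsc2 fell by 0.71 in control (SE 0.14, 1.64-fold lower, adjusted p = 0.00428) and fell by 0.53 in knockdown cells (SE 0.14, 1.44-fold lower, adjusted p = 0.0204). The control call was lost without replicate 2 or 3 of all groups (adjusted p of 0.0554 and 0.0658). The knockdown call was lost without day 3 knockdown replicate 1 or 3, day 6 knockdown replicate 2, or replicate 2 or 3 of all groups (adjusted p of 0.0600 to 0.177). Its neighbour on chromosome 18, Dsc3, which marks stratified epithelia, differed by -0.16 in control and -0.02 in knockdown cells (adjusted p = 0.10 and 0.836). Desmoglein 2 (Dsg2), the partner cadherin, differed by 0.03 and -0.11 and stayed between 4.52 and 4.81 on all arrays. Its other probe set had group means of 4.37, 4.32, 4.46 and 4.48 in the order day 3 control, day 3 knockdown, day 6 control and day 6 knockdown.

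Desmoplakin (Dsp), which ties desmosomes to keratin filaments, fell with time in control cells and did not pass in knockdown cells. In the order of the replicates, Dsp measured 5.96, 6.30 and 6.21 in day 3 control, 5.74, 5.99 and 6.07 in day 3 knockdown, 5.38, 5.70 and 5.78 in day 6 control and 6.50, 6.15 and 6.14 in day 6 knockdown (log2 intensity). The day 6 control arrays lay below all 9 others except that day 3 knockdown replicate 1 overlapped them, and day 6 knockdown replicate 1 was the highest array. Dsp fell by 0.54 in control cells (SE 0.13, 1.45-fold lower, adjusted p = 0.0162), and its difference in knockdown cells was 0.33 (95% interval 0.04 to 0.62, adjusted p = 0.116). The control call was lost without day 3 control replicate 2 or 3, day 6 control replicate 1, or replicate 2 or 3 of all groups (log2 fold changes of -0.59 to -0.42, adjusted p of 0.0524 to 0.150). Of 6 keratinocyte markers, 0 passed in control cells and 1, Krt10, passed in knockdown cells, higher by 0.21 at day 6. Krt14 lay between 4.66 and 4.96 on all arrays. The summed intensity of the 6 was 282 to 294 in day 3 control, 267 to 282 in day 3 knockdown, 290 to 298 in day 6 control and 287 to 299 in day 6 knockdown. Their part in the Dsp values was not tested.

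Of the plakophilins and plakoglobin, which fill the desmosome's plaque, Pkp2 fell with time in control cells. On the log2 intensity scale the Pkp2 arrays read 9.43, 9.54 and 9.55 in day 3 control, 9.74, 9.33 and 9.70 in day 3 knockdown, 8.94, 9.07 and 9.28 in day 6 control and 9.24, 9.13 and 9.42 in day 6 knockdown. In control cells the day 6 arrays lay below the day 3 arrays, and in knockdown cells day 3 replicate 2 lay among the day 6 arrays. Pkp2 fell by 0.41 in control (SE 0.12, 1.33-fold lower, adjusted p = 0.0302), and its difference in knockdown cells was -0.33 (adjusted p = 0.0701, or 0.0354 with the replicate number as a block, where it passed). Of 9 fits that left out arrays, the control call held in 2, without day 3 control replicate 1 and without day 6 control replicate 3 (lost otherwise at adjusted p of 0.0776 to 0.135). Plakoglobin (Jup), which also serves adherens junctions, differed by 0.16 in control (adjusted p = 0.132) and 0.21 in knockdown cells (adjusted p = 0.0503, or 0.0318 with the block, where it passed). Day 3 arrays gave Jup log2 intensities of 9.74, 9.71 and 9.80 in control and 9.76, 9.73 and 9.82 in knockdown, and day 6 arrays 9.84, 9.86 and 10.02 in control and 10.03, 9.88 and 10.03 in knockdown. The day 6 arrays lay above the day 3 arrays without overlap.

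Pkp4, a plakophilin of wider distribution that is also found at adherens junctions, differed by -0.13 and -0.05 (adjusted p = 0.201 and 0.681). The log2 intensity of Pkp4 was 8.70, 8.76 and 8.77 in day 3 control, 8.83, 8.66 and 8.64 in day 3 knockdown, 8.63, 8.63 and 8.58 in day 6 control and 8.70, 8.59 and 8.70 in day 6 knockdown (replicates 1 to 3). The day 6 control arrays lay below those of both day 3 groups and overlapped those of day 6 knockdown, and the other groups overlapped each other. Perp, a tetraspan membrane protein of desmosomes and a p53 target, differed by -0.17 in both groups of cells (adjusted p = 0.158 and 0.139). In the order of the replicates, Perp measured 10.99, 11.13 and 10.97 in day 3 control, 11.12, 10.96 and 11.11 in day 3 knockdown, 10.74, 10.90 and 10.95 in day 6 control and 10.87, 10.85 and 10.95 in day 6 knockdown (log2 intensity). The day 6 arrays lay below those of day 3 in each group of cells. Pkp1 and Pkp3 differed by -0.02 to 0.17, and periplakin (Ppl) and envoplakin (Evpl), plakins of the stratified epithelial envelope, by 0.00 to 0.13. These 4 genes did not pass the test.

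**Figure D2:**
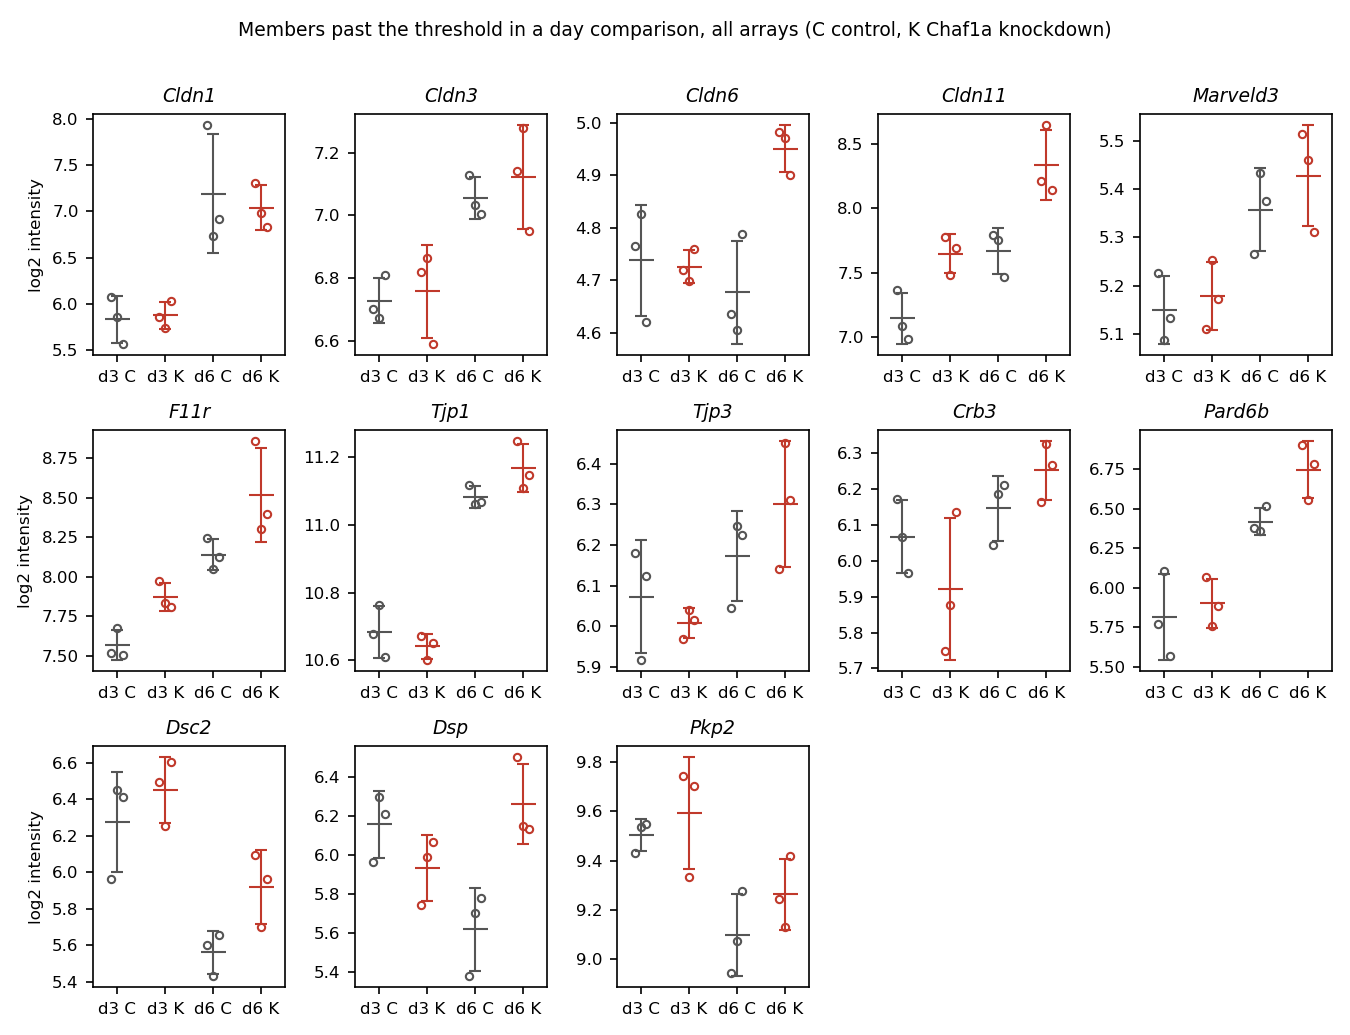
Log2 intensity on each array for the 13 genes that passed the test from day 3 to day 6 in control or knockdown cells; dots are replicates 1 to 3 from left to right, with the mean and SD of each group. In Tjp1 the 6 day 6 arrays lay above the 6 day 3 arrays, and in Dsp the day 6 control arrays were low while the day 6 knockdown arrays were not.

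The second question was whether the Chaf1a hairpin altered these genes on a given day. At day 3 none of the 34 members passed, as was so for all 17859 genes (0%). With an unadjusted p under 0.05, 2 members were higher (5.88%, against 3.12% of all genes) and 1 was lower (2.94%, against 2.89%), and the signs were split 17 to 17 (50% above 0, against 45.8% of all genes). Cldn11 was higher by 0.50 (95% interval 0.19 to 0.81, adjusted p = 0.726), F11r by 0.31 (0.04 to 0.57, adjusted p = 0.765), and Cldn5 differed by -0.14 (-0.29 to -0.0030, adjusted p = 0.818). On the log2 intensity scale the Cldn5 arrays read 4.48, 4.61 and 4.52 in day 3 control, 4.28, 4.41 and 4.49 in day 3 knockdown, 4.54, 4.52 and 4.48 in day 6 control and 4.54, 4.50 and 4.58 in day 6 knockdown. The day 3 knockdown values of Cldn5 overlapped those of control. Dsc2 differed by 0.18, Dsp by -0.22 and Pkp3 by -0.12, with adjusted p of 0.913, 0.873 and 0.889. Day 3 arrays gave Pkp3 log2 intensities of 6.19, 6.11 and 6.15 in control and 6.00, 6.16 and 5.93 in knockdown, and day 6 arrays 6.01, 6.20 and 6.19 in control and 6.15, 6.17 and 6.28 in knockdown. Day 3 knockdown replicate 3 was the lowest Pkp3 array, and the groups overlapped. The median over members was 0.0072, against -0.010 over all genes, and it was -0.020 without day 3 control replicate 3. Cldn11 and F11r were the members whose knockdown arrays all lay above the control arrays (5.88%, against 5.21% of all genes), and none lay wholly below, against 5.59%. Without day 3 knockdown replicate 2 no member passed either.

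At day 6 no member passed the limma test, which called 7 genes higher (0.0392%) and none lower among all genes. With an unadjusted p under 0.05, 7 members were higher (Dsp, Cldn11, Cldn6, F11r, Dsc2, Pard6b and Cldn4; 20.6%, against 2.15% of all genes) and none was lower, against 2.29%. Dsp was higher by 0.64 (95% interval 0.35 to 0.93, 1.56-fold, adjusted p = 0.288), Cldn11 by 0.66 (0.35 to 0.97, 1.58-fold, adjusted p = 0.294) and Cldn6 by 0.27 (0.12 to 0.43, adjusted p = 0.566). The differences of F11r, Dsc2, Pard6b and Cldn4 were 0.38, 0.36, 0.33 and 0.33, with adjusted p of 0.948 to 0.999. The knockdown arrays lay wholly above the control arrays for 8 members (Cldn6, Cldn11, Dsc2, Dsc3, Dsp, F11r, Marveld2 and Pard6b; 23.5%, against 5% of all genes) and wholly below for none, against 5.57%.

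At day 6 the difference was above 0 for 31 of the 34 members (91.2%, against 46.2% of all genes), with a median of 0.071 against -0.0081. Without day 6 control replicate 3 the median was 0.11. The 3 below 0 were Cldn1 at -0.15 (95% interval -0.70 to 0.39), Dsg2 at -0.12 (-0.29 to 0.05) and Cldn7 at -0.02 (-0.23 to 0.19). The log2 intensity of Dsg2 was 4.65, 4.71 and 4.71 in day 3 control, 4.81, 4.70 and 4.63 in day 3 knockdown, 4.80, 4.62 and 4.76 in day 6 control and 4.54, 4.52 and 4.76 in day 6 knockdown (replicates 1 to 3). In the order of the replicates, Cldn7 measured 4.38, 4.24 and 4.36 in day 3 control, 4.48, 4.50 and 4.21 in day 3 knockdown, 4.58, 4.29 and 4.41 in day 6 control and 4.28, 4.48 and 4.47 in day 6 knockdown (log2 intensity). Both genes lay near the low-value filter and their day 6 groups overlapped. By role, 11 of 13 claudins, all 9 other tight junction and polarity genes and 11 of 12 desmosome genes were above 0, with medians of 0.057, 0.11 and 0.065. In the same comparison all 9 fibroblast markers tested were below 0, with a median of -0.065, and none passed. Their part in the members' differences was not tested. The members' mean deviation from their own 12-array means was 0.115 to 0.138 on the day 6 knockdown arrays, -0.041 to 0.042 on the day 6 control arrays, -0.093 to -0.044 on the day 3 control arrays and -0.071 to -0.042 on the day 3 knockdown arrays. The day 6 knockdown arrays were the highest of the 4 groups on this mean, with no overlap. It is a mean over genes chosen with results known and has no test. The comparison with day 6 control shares the day 6 control arrays with the day 6 against day 3 comparison in control cells. The day 6 knockdown arrays enter this comparison, the day 6 against day 3 comparison in knockdown cells and the interaction below. The values and signs of these comparisons are therefore given side by side and not as separate evidence.

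**Figure D3:**
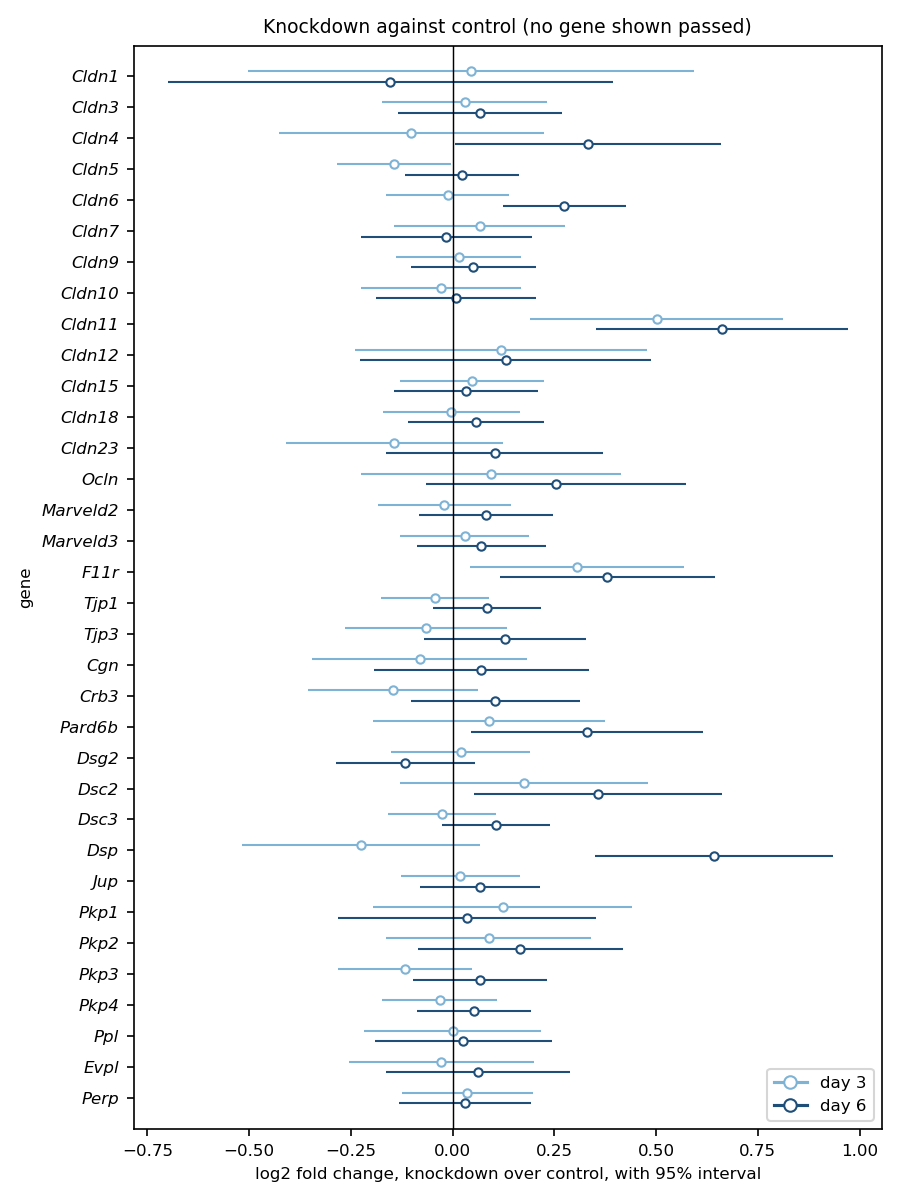
Log2 fold change between knockdown and control arrays, at day 3 and day 6, for the 34 tested genes, with 95% intervals from limma. No gene passed an adjusted p of 0.05 on either day; at day 6 the points of 31 genes lay to the right of 0, with Cldn11 and Dsp at 0.66 and 0.64.

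Whether the hairpin's effect differed between the days was tested as an interaction, and no member passed, nor did any of the 17859 genes (0%). Dsp had the largest difference, 0.87 (SE 0.19, 95% interval 0.45 to 1.28, adjusted p = 0.874 by limma), being at -0.22 in knockdown against control at day 3 and at 0.64 at day 6. Cldn4 (0.43, adjusted p = 0.978) and Cldn6 (0.29, adjusted p = 0.918) followed. Cldn1 (-0.20), Dsg2 (-0.14) and Pkp1 (-0.09) were the lowest. On the log2 intensity scale the Pkp1 arrays read 5.63, 5.38 and 5.55 in day 3 control, 5.84, 5.42 and 5.67 in day 3 knockdown, 5.76, 5.31 and 5.86 in day 6 control and 5.50, 5.69 and 5.85 in day 6 knockdown. The 4 groups of Pkp1 overlapped. Dsp and Cldn6 were the 2 members with an unadjusted p under 0.05 on the higher side (5.88%, against 2.56% of all genes), and none was on the lower side (2.53% of all genes). The interaction was above 0 for 28 of 34 members (82.4%, against 50.8% of all genes). Since 4 groups enter it, the interval of a gene reached a median of 0.29 to either side.

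**Figure D4:**
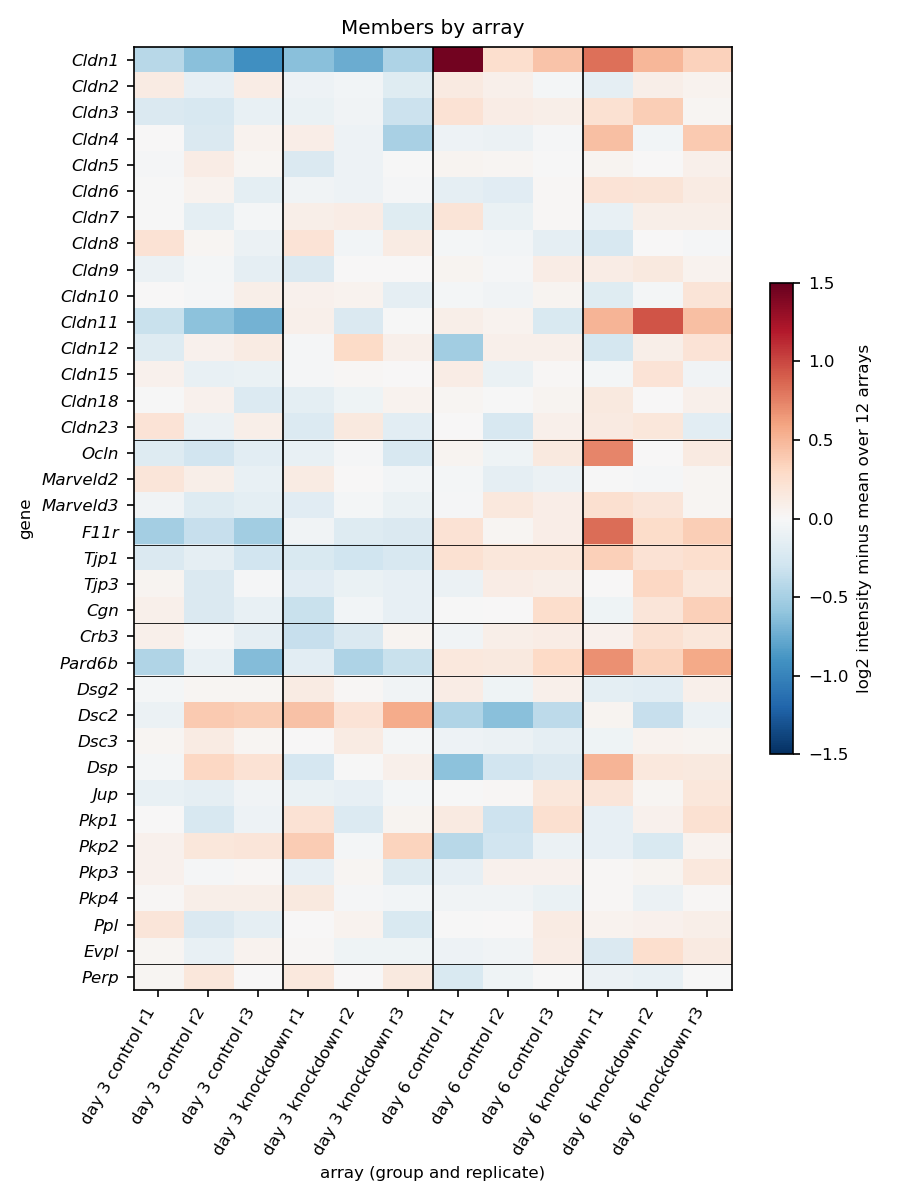
Deviation of each of the 36 genes from its own mean log2 intensity over the 12 arrays, with a column per array ordered by group and replicate. The column means of the day 6 knockdown arrays, 0.115 to 0.138, were above those of the other 9 arrays, and Cldn1 stood highest on day 6 control replicate 1.

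Other genes of these pathways were followed from a list of 56 junction and polarity genes outside the 36, of which 52 had a probe set and 47 passed the filter. From day 3 to day 6, 3 rose (6.38%, against 6.98% of all genes) and 2 fell (4.26%, against 10.6%) in control cells, and 4 rose (8.51%, against 7.45%) and 3 fell (6.38%, against 10.5%) in knockdown cells. In control cells only Jam2 rose without day 6 control replicate 3 or without replicate 1, 2 or 3 of all groups. At most Tjap1 fell in either group of cells without replicate 2 or 3 of all groups, and in knockdown cells also without day 3 knockdown replicate 3. Jam2, a junctional adhesion molecule related to F11r, rose by 2.01 in control and 1.86 in knockdown cells (adjusted p = 1.40e-07 and 1.29e-07), from 7.95 ± 0.12 to 9.96 ± 0.15 and from 8.14 ± 0.04 to 10.00 ± 0.06 (log2 intensity, mean ± SD, n = 3). Ildr1, a protein of tricellular junctions, rose by 0.33 and 0.53, Prkcz, an atypical protein kinase C, by 0.29 in control cells, and Patj and Pard3, scaffolds of the Crumbs and PAR complexes, by 0.32 and 0.26 in knockdown cells. Tjap1 fell by 0.42 in control and fell by 0.32 in knockdown cells. Pard6g, a paralog of Pard6b, fell in control cells by 0.40, and Amotl2 and Ybx3 fell in knockdown cells by 0.26 and 0.19. With the replicate number as a block 9 of these genes rose in knockdown cells, and over the other alternatives the count ran from 4 to 10, or from 2 to 5 when arrays were left out. None of the 47 passed in the comparisons of knockdown with control or in the interaction, and their medians there were 0.0040 at day 3 and 0.017 at day 6.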

How the data were processed

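The labels' protocols give 100 ng of total RNA, labelled with biotin, for Affymetrix arrays. The submitters' processing notes name RMA and Affymetrix Expression Console 1.3.0.187 as the tools behind the deposited values, which are intensities on a linear scale, and their log2 was taken. For the array annotation, a genome build is not given in the sources used here. In all, the file held 41345 probe sets, of which 23521 named 1 gene. A gene was kept where it reached the array's 30th percentile in at least 3 arrays. Limma 3.58.1 in R 4.3.3 fitted a mean per group over the 12 arrays with 8 residual degrees of freedom, and two-sided p-values were adjusted by Benjamini-Hochberg. The number of arrays limits the precision. Tables and plots used Python 3.11.15, pandas 2.3.3 and matplotlib 3.10.9, and the fit was tested on simulated data.

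Of 18 same-numbered pairs of arrays, the 12 within a direct comparison correlated in their deviations from the group means at r of 0.137 to 0.373, and the 6 others at 0.000641 to 0.197, while pairs of different number lay at -0.279 to 0.025. Deviations from a group mean sum to 0 over its arrays, so the values of differently numbered pairs are not independent of those of same-numbered pairs. The numbers were taken to pair the samples within those comparisons. The main fit, whose values are given unless another is named, did not use this pairing, and a fit with the number as a block was an alternative. The members and lists were chosen with earlier results of these data known. Full values were given for members past the threshold in any comparison, the 5 with the highest mean over the arrays (Perp, Tjp1, Jup, Pkp2 and Pkp4), the 3 with the smallest p in each direction of a knockdown comparison, and the 3 largest differences of each sign in the interaction. Alternatives changed the filter, the normalisation, an offset, array weights, the variance prior, the arrays in the fit and the replicates.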

Additional observations from a re-analysis of the deposited data

Results flagged for a closer look

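Dsp was set apart because its change from day 3 to day 6 went down in every same-numbered pair of control arrays and up in every pair of knockdown arrays, and its knockdown effect was likewise below 0 in every day 3 pair and above 0 in every day 6 pair. The difference between the 2 effects was 0.87 on the log2 scale (SE 0.19, adjusted p = 0.874 by limma), so it did not pass the test.

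Cldn23, a claudin, went down in every same-numbered pair of control arrays and up in every pair of knockdown arrays from day 3 to day 6. The difference between these changes was 0.25 (SE 0.17, adjusted p = 0.990 by limma), and the test was not passed.

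The knockdown effect on Dsc3 was below 0 in every day 3 pair and above 0 in every day 6 pair. The difference was 0.13 (SE 0.09, adjusted p = 0.990 by limma), and the test was not passed. Dsc3 had a mean log2 intensity of 4.78 over the 12 arrays, near the filter.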

How the results depend on the processing

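Over 38 named pairs of gene and comparison, 707 alternative values were computed: 607 kept direction and side of the threshold, 87 lost the call and 13 changed sign, each in a comparison that gene had not passed. All lost calls were in comparisons of day 6 with day 3, the only ones with calls to lose. The 607 also count pairs that never passed, so they do not measure how well the calls held. Members higher at day 6 than at day 3 numbered 3 to 5 in control cells when arrays were left out, and 3 to 9 in knockdown cells; a fit of only the groups compared gave 6 in knockdown cells. Members lower numbered 0 to 3 in control and 0 to 2 in knockdown cells when arrays were left out, and 2 in knockdown cells with the replicate number as a block, which lost Cldn6 and added Jup and Pkp2 and changed no other member's call. No setting called a member between knockdown and control or in the interaction.

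The cause of the sign changes was not tested. With array weights the Cldn7 difference at day 6 was 0.037. When arrays were left out, the day 6 differences ran from -0.12 to 0.13 for Cldn7 and from -0.39 to 0.22 for Cldn1, and the day 3 difference of Dsc2 from -0.0043 to 0.36. The interaction then ran from -0.29 to 0.10 for Pkp1, from -0.48 to 0.17 for Cldn1 and from -0.25 to 0.000602 for Dsg2. The printed intervals are not adjusted for the number of genes tested, so they understate the difference needed to pass. Between knockdown and control at day 6, Dsp at 0.64 (interval 0.35 to 0.93) and Cldn11 at 0.66 (0.35 to 0.97) did not pass. Nor did Dsp in the interaction, at 0.87 (0.45 to 1.28). With 3 arrays a group, differences as large as these could go uncalled in those comparisons. Signals near the filter (Cldn5, Cldn6, Cldn7, Cldn10, Cldn18, Dsc3 and Dsg2) have little room above background.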
